A study of Mus musculus with 9 samples.

Results

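Of 9 mouse colons, 3 had almost no signal on one probe set of Ighm, the gene of the heavy chain constant region of immunoglobulin M, and the other 6 had a strong one. The 2 classes of arrays were selected on the deposited signal of this probe set, whatever the genotype: under 100 signal units on 3 arrays and over 1000 on 6, with none in between. The 3 low arrays were heterozygous 1, mutant 2 and mutant 3. The 6 high arrays were wild-type 1, 2 and 3, heterozygous 2 and 3, and mutant 1. The low class therefore held 0 wild-type, 1 heterozygous and 2 mutant arrays. Because measured values made the split, everything that compares the 2 classes is a description of these 9 arrays without a test. Tests were run only between the genotypes that the labels give.

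The study compared mutant and heterozygous with wild-type mice at cSHMT, the cytosolic serine hydroxymethyltransferase encoded by Shmt1, which moves carbon units between serine and folate. There were 3 mice of each genotype, all of strain C57Bl/6 by the labels, after 10 generations of backcrossing of the cSHMT line, and all 9 weeks old. All 9 mice, wild-type included, had been weaned at 3 weeks onto AIN-93G without folate and choline, so no colon came from a mouse on a complete diet. One label gives 6 weeks on that diet and another 5. The labels give neither how Shmt1 was altered nor the sex or litter of a mouse. RNA came from tissue of the opened and rinsed proximal colon, with epithelium, muscle and immune cells together. In such bulk tissue, fewer cells of a type and less RNA per cell cannot be told apart.

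Immunoglobulin M is the first antibody class a B cell makes, while plasma cells of the gut wall mostly secrete immunoglobulin A. Interferons are secreted proteins that act through cell surface receptors and Jak kinases on STAT and IRF transcription factors. Type I interferons and interferon gamma switch on overlapping sets of genes for antiviral enzymes, GTPases of cell-autonomous defence, chemokines and antigen presentation. In the intestine, cytotoxic T cells within and below the epithelium are a known source of interferon gamma.

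The values are deposited Affymetrix signals on a linear scale, given below as signal units. Differences between classes are medians of the low arrays minus medians of the high arrays after log2(signal + 16) and quantile normalization, where the added 16 understates the differences of dim probe sets. Of 22626 probe sets that are no array controls, 13576 were bright enough to be tested, with a limit near 75.5 signal units, and the 12 probe sets for Bacillus genes, absent from mouse RNA, reached at most 10.9. Pairs of arrays correlated at 0.986 to 0.993, and the range was the same to these digits for pairs of the same class and of different classes. The 3'/5' ratio of actin, which rises when RNA is shortened, was 2.73 to 4.45 in the low and 2.52 to 5.02 in the high arrays, so the classes overlapped. This ratio followed the replicate number, at 4.45 to 5.02 in the arrays numbered 1, 3.05 to 3.75 in those numbered 2 and 2.52 to 2.73 in those numbered 3. The low class held 1 array of each number. Shmt1 followed the genotype and not the Ighm class on its clearest probe set, 1425177_at: 564.3, 575.7 and 644.1 in wild-type, 297.9, 274.4 and 337.0 in heterozygous and 116.9, 120.0 and 113.1 in mutant arrays 1 to 3. Mutant 1 stood apart in fat cell genes, being the lowest array for 8 of 8 tested adipocyte markers.

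On the Ighm probe set that defined the split, the signals were 10.6 in heterozygous 1, 15.9 in mutant 2 and 2.6 in mutant 3. In the high arrays they were 2303.2, 1901.7 and 1255.3 in wild-type 1 to 3, 2328.0 and 2831.4 in heterozygous 2 and 3, and 2864.8 in mutant 1. Of the low values, 2 lay below the highest Bacillus control of 10.9 and that of mutant 2 above it, and nothing lay between 15.9 and 1255.3. The median difference was -6.43 on the log2 scale.

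The other Ighm probe sets did not follow it. Of 11 probe sets annotated to Ighm alone, 8 were tested, and 5 of these were higher in every low array than in every high array. Among all tested probe sets, no others were higher in every low array by at least 1 on the log2 scale (0.0368% of those tested), and without the limit on brightness 1 dimmer probe set was. On 1427870_x_at the signals were 267.7 in heterozygous 1, 596.9 in mutant 2 and 476.0 in mutant 3, against 167.4, 65.2 and 234.9 in wild-type, 104.9 and 44.0 in heterozygous 2 and 3, and 47.2 in mutant 1 (difference 2.26). On 1425247_a_at the low arrays read 485.6, 1170.2 and 848.1 and the high arrays 93.6 to 482.2 (2.23). The pattern was alike on 1427869_at (2.15), 1427756_x_at (2.03) and 1425324_x_at (1.44), where mutant 2 and mutant 3 were again the brightest arrays. On 1427869_at the classes overlapped in the signals as deposited, since wild-type 3 read 586.6 and heterozygous 1 read 582.0. Among the high arrays the order ran the other way from the defining probe set. Mutant 1 and heterozygous 3, the brightest there, were the dimmest on these 5, and wild-type 3, the dimmest of the high arrays there, was the brightest of the high arrays on 4 of the 5.

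The 2 remaining tested Ighm probe sets put no clear border between the classes. The brighter, 1427351_s_at, read 255.9, 518.0 and 431.4 in the low arrays and 352.8 to 1078.1 in the high arrays (difference -0.49). On it the wild-type arrays were the highest, at 851.2, 1078.1 and 667.6. The dimmer, 1427329_a_at, read 58.9, 78.0 and 111.8 against 80.9 to 164.5. Which part of Ighm, or which related sequence, each probe set reads was not analysed here.

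Immunoglobulin A, the main antibody of the gut, overlapped between the classes on its brightest probe set. Igha probe set 1421653_a_at read 7983.4, 8186.6 and 6446.1 in the low and 7430.9 to 11271.6 in the high arrays (difference -0.10), and on a second Igha probe set, 1429381_x_at, the classes separated by a small difference of -0.35 after normalization but not as deposited. Jchain, the joining chain of polymeric antibodies, read 5567.6, 4724.0 and 3908.4 in the low and 4504.4 to 7678.1 in the high arrays (-0.16). For the kappa light chain, Igk probe set 1452557_a_at overlapped between classes (-0.33), while 1425738_at was lower in every low array, at 82.7, 78.3 and 55.2 against 129.6 to 883.5 (-1.69). Over all 45 immunoglobulin probe sets of 1 gene, 25 were tested, 3 were lower and 5 were higher in every low array. The 3 include the probe set that made the split. The 5 are all of Ighm and correlated at 0.965 to 0.997 over the 9 arrays. Of all tested probe sets, 1.87% were lower and 1.05% higher.

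**Figure D1:**
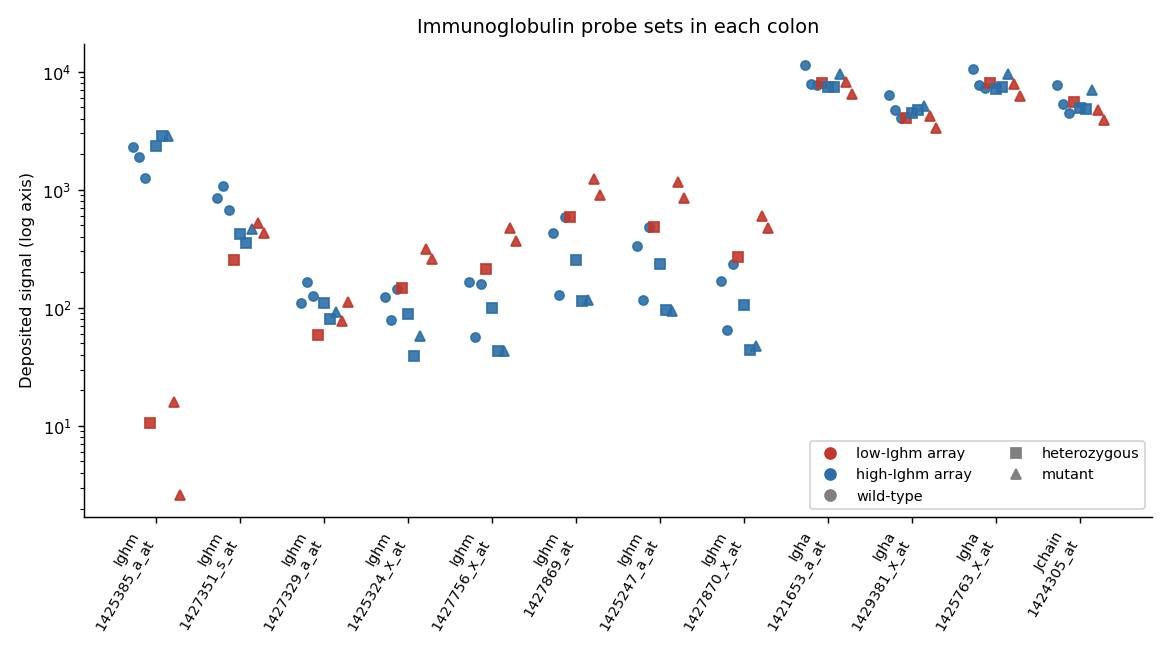
Deposited signal (log axis) of the tested Ighm probe sets, Igha and Jchain in each of the 9 colons; colour gives the Ighm class, the marker shape the genotype, and each point is 1 array. The defining probe set is at 2.6 to 15.9 in the low arrays and at 1255.3 or more in the high arrays, 5 other Ighm probe sets are brightest in mutant 2 and mutant 3, and Igha and Jchain overlap.

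Beyond the immunoglobulins, the genes with the largest differences were largely interferon-induced, cytotoxic T cell and antigen presentation genes, all with lower signals in the low arrays. Over all tested probe sets, 254 (1.87%) were lower in every low array than in every high array, and 142 (1.05%) were higher. By at least 1 on the log2 scale, 47 probe sets (0.346%) were lower. Both the 254 and the 47 include the defining Ighm probe set, lower by the rule itself, and Igk probe set 1425738_at. The 47 stood for 34 named genes, of which 29, Ighm and Igk among them, were members of the gene lists used here. Another 10 of the 47 had no gene symbol or several. The median difference over all tested probe sets was 0.01, with 90% of probe sets between -0.30 and 0.29. Without heterozygous 1, mutant 2 or mutant 3 the count of 254 became 439, 567 and 572, as fewer arrays had to lie below the rest. On the signals as deposited 205 probe sets (1.51%) were lower, of which 158 were among the 254.

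Of the 28 lists, that of type I interferon-induced genes had the most lower genes by count, though not by share. Of 40 listed genes 31 were on the array and 29 were tested, 20 of them lower in every low array and 14 of those by at least 1. The median difference of the 29 was -0.93. Because the limit on dim probe sets is a mean over 9 arrays, of which 6 are high, it favours genes that are bright in the high arrays. Without that limit, 21 of the 31 genes on the array were lower and their median was -1.07, beside 1.69% of all probe sets.

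Genes of the oligoadenylate synthetase family, some of which switch on RNA decay in infected cells, were among those with the largest differences. Oas3 read 25.5 in heterozygous 1, 28.3 in mutant 2 and 46.5 in mutant 3. In the high arrays it read 384.7, 183.5 and 274.6 in wild-type, 303.2 and 159.7 in heterozygous 2 and 3, and 250.8 in mutant 1. The highest low array thus lay well under the lowest high array (difference -2.63). Oas2 (-2.57), Oasl2 (-2.13), Oasl1 (-1.26) and Oas1a (-1.07) were also lower in every low array. Usp18, which takes ISG15 off proteins and dampens the receptor of type I interferon, read 23.2, 56.3 and 58.2 in the low arrays, and 119.7, 361.1 and 440.5 as the lowest, median and highest of the high arrays (-2.49).

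Other antiviral effectors followed. Rsad2, the radical enzyme viperin, read 208.9, 495.4 and 401.5 in the low arrays and 703.0 to 2115.2, median 1535.9, in the high arrays (-1.99), and its second probe set differed by -2.20. Ifit1, which binds foreign RNA, read 463.2, 931.2 and 677.4 against 1141.5 to 3586.2 (-1.95). Ifit2 (-1.69) and Ifit3 (-1.56), proteins of the same family, were lower too. Rtp4 read 81.6, 257.4 and 183.1 against 371.9 to 1647.9 (-2.36). Zbp1, a sensor of nucleic acids in the Z form, differed by -1.47, Trim30a by -1.73 and Bst2, which tethers budding viruses to the cell, by -0.88.

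The transcription factors of the pathway were less uniform. Irf7, which amplifies the response, read 355.1, 526.8 and 584.0 in the low arrays and 688.4 to 1866.0 in the high arrays (-1.40). Irf9, the DNA-binding subunit of the STAT complex of type I interferon, read 258.7, 318.8 and 240.3 against 469.5 to 628.4 (-0.88). Stat2, another subunit of that complex, overlapped between the classes (-0.26). Mx1 (-0.93), Ifih1 (-0.54), Cmpk2 (-0.51) and Isg20 (0.14) overlapped as well.

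Genes induced by interferon gamma and the GTPases of cell-autonomous defence were lower as well. Of 30 listed genes 24 were on the array and 19 were tested, 16 of them lower in every low array and 8 of those by at least 1, with a median of -0.99. Without the limit on dim probe sets, 16 of 24 were lower and the median was -0.84. Over all probe sets the share lower was 1.87% of those tested and 1.69% without the limit. Irgm2, an immunity-related GTPase, read 88.4, 185.6 and 209.4 in the low arrays, and 658.6, 620.4 and 847.5 in wild-type, 691.7 and 462.9 in heterozygous 2 and 3 and 480.0 in mutant 1 (-1.70). Iigp1 (-1.88) and Igtp (-1.41), of the same family, and the guanylate-binding proteins Gbp3 (-1.63), Gbp6 (-0.99), Gbp2 (-0.90) and Gbp7 (-0.73) were lower in every low array.

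Of the 3 chemokines on the array that draw T cells through Cxcr3, Cxcl9 and Cxcl10 were among them. Cxcl9 read 11.7 in heterozygous 1 and up to 60.3 in the mutant low arrays, against 109.5 to 255.0 in the high arrays (-1.36). Cxcl10 read 28.3, 59.0 and 67.2 against 71.8 to 146.7 (-0.77). Cxcl11, too dim to be tested, overlapped, at 33.0 to 41.7 in the low and 21.6 to 41.6 in the high arrays. Cd274, a ligand that restrains T cells, read 95.9, 187.9 and 170.9 against 280.1 to 411.5 (-0.99). Il18bp, a secreted antagonist of an interleukin that induces interferon gamma, differed by -1.13. The transcription factor Irf1 (-0.31) and the myeloid factor Irf8 (-0.03) overlapped.

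The interferons themselves were close to the background of the array in both classes. Ifng read 0.7, 8.1 and 3.4 in the low and 9.0 to 15.1 in the high arrays, around the highest Bacillus control, and was too dim to be tested. Ifnb1 was at most 3.8 and Ifna4 at most 4.4 in every array. Ifng and Ifna4 were lower in every low array as deposited, at signals around or below that control. Ifna1 overlapped, at 7.5 to 18.6 in the low and 2.6 to 20.2 in the high arrays. Of the 11 tested genes among interferon receptors, kinases and sensors, 0 were lower or higher in every low array and the median was -0.01. The differences were -0.10 for Ifnar1 and -0.42 for Ifnar2, which form the type I receptor, and 0.27 for Ifngr1 and -0.16 for Ifngr2, which form the receptor of interferon gamma. Jak1 (-0.10), Jak2 (-0.01) and Tyk2 (0.09) overlapped too.

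The promoters of 4 genes are shown because many genes lower in the low arrays are known targets of factors that bind the interferon-stimulated response element. Gzma is in the T cell list and not in an interferon list. The 4 are the first lower genes, in order of the gap between classes, whose 150 bases before the start hold the element's core, GAAA followed by any 2 bases and again GAAA, on either strand, and were chosen after their values were seen. Sequences are from RefSeq for GRCm38.p6, written 5′ to 3′ on the strand of the gene, with the core in capitals. In Oas3 and Irgm2 the core reads forward, and in Gzma and Rsad2 it lies on the opposite strand.
Oas3, chr5:120777660-120777809, minus strand: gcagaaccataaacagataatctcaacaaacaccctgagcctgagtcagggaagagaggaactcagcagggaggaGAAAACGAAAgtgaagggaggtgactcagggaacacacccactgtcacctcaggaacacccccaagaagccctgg
Irgm2, chr11:58214827-58214976, plus strand: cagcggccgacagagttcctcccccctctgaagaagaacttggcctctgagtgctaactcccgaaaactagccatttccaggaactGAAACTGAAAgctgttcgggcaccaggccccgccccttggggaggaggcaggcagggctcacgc
Gzma, chr13:113100982-113101131, minus strand: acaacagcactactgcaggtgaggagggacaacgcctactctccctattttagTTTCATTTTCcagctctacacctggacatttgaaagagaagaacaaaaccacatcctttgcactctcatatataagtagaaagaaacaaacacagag
Rsad2, chr12:26456453-26456602, minus strand: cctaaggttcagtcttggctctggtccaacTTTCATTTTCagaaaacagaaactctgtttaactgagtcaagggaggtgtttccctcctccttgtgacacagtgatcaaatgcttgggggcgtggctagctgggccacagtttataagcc

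The core lay 75 bases before the start in Oas3, 64 in Irgm2, 97 in Gzma and 120 in Rsad2, counted from its base nearest the 5′ end of the printed strand. In the 250 bases before the start it was present in 15.2% of genes lower in every low array (25 of 165 genes with a promoter in the table) and in 42.3% of those lower by at least 1 (11 of 26). The share was 3.22% among all tested genes (215 of 6667), 3.46% among all genes with a promoter (936 of 27025) and 1.98% among genes higher in every low array (2 of 101). The core of the gamma-activated site, TTC followed by any 3 bases and GAA, which reads the same on both strands, was present in 10.3%, 23.1%, 6.87%, 8.13% and 6.93% of the same groups. A match in these letters is not a site shown to be bound.

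Genes of T cells and cytotoxic lymphocytes were lower too, among them those of the cytotoxic granules and of the CD8 coreceptor. Of 41 listed genes 33 were on the array and 18 were tested, 10 of them lower in every low array and 4 of those by at least 1, with a median of -0.51. Without the limit on dim probe sets, 15 of 33 were lower and the median was -0.48. Over all probe sets the share lower was 1.87% of those tested and 1.69% without the limit. The summed signal of the 33 genes was 4469 to 5705 in the low and 7359 to 10875 in the high arrays. Ccl5 is counted in this list and in the interferon gamma list.

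Gzma, a protease of cytotoxic granules, read 14.9 in heterozygous 1, 145.9 in mutant 2 and 132.6 in mutant 3. In the high arrays it read 702.4, 514.0 and 328.9 in wild-type, 540.3 and 455.4 in heterozygous 2 and 3, and 411.1 in mutant 1 (-1.83). Ccl5, a chemokine that activated T cells release, read 296.0, 421.2 and 316.5 against 1746.0, 1245.4, 1037.7, 1310.4, 1015.1 and 1158.0 in the same order (-1.87). The 3 low arrays were close to each other and all far below the high arrays. Cd8a, the coreceptor of cytotoxic T cells, read 40.5, 75.1 and 56.7 in the low arrays and 134.0 to 267.0, median 205.8, in the high arrays (-1.62).

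Subunits of the T cell receptor complex were mixed. Cd3d read 84.9, 99.0 and 93.2 in the low arrays against 159.6 to 245.9 (-0.99). Cd3g, too dim to be tested, was also lower in every low array as deposited, at 36.8, 43.9 and 31.0 against 49.1 to 119.1. Cd3e had a large median difference of -1.94, but mutant 2 read 478.9 and the lowest high array 222.2, so the classes overlapped. Cd247, the zeta chain, was too dim to be tested and overlapped as well, with 37.0 as the lowest low value and up to 49.5 in the high arrays. Nkg7 (-1.38), found in cytotoxic granules, Ctsw (-0.80), a protease of cytotoxic cells, and Itgae (-0.48), the integrin that holds T cells in the epithelium, were lower in every low array. On the signals as deposited Ctsw overlapped, at 142.3 in mutant 2 and 139.2 in mutant 1. Ptprc, the CD45 antigen of all white blood cells, was lower by only 0.26 on the median. Of the 15 genes too dim to be tested, 4 were lower in every low array as deposited: Cd3g, Cd5, Cd8b1 and Gzmb. Gzmb read 8.4, 12.5 and 11.0 against 26.8 to 110.1. Cd4 was at 25.4 to 53.0 in all arrays and overlapped. Perforin, Prf1, overlapped with a difference of 0.15.

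**Figure D2:**
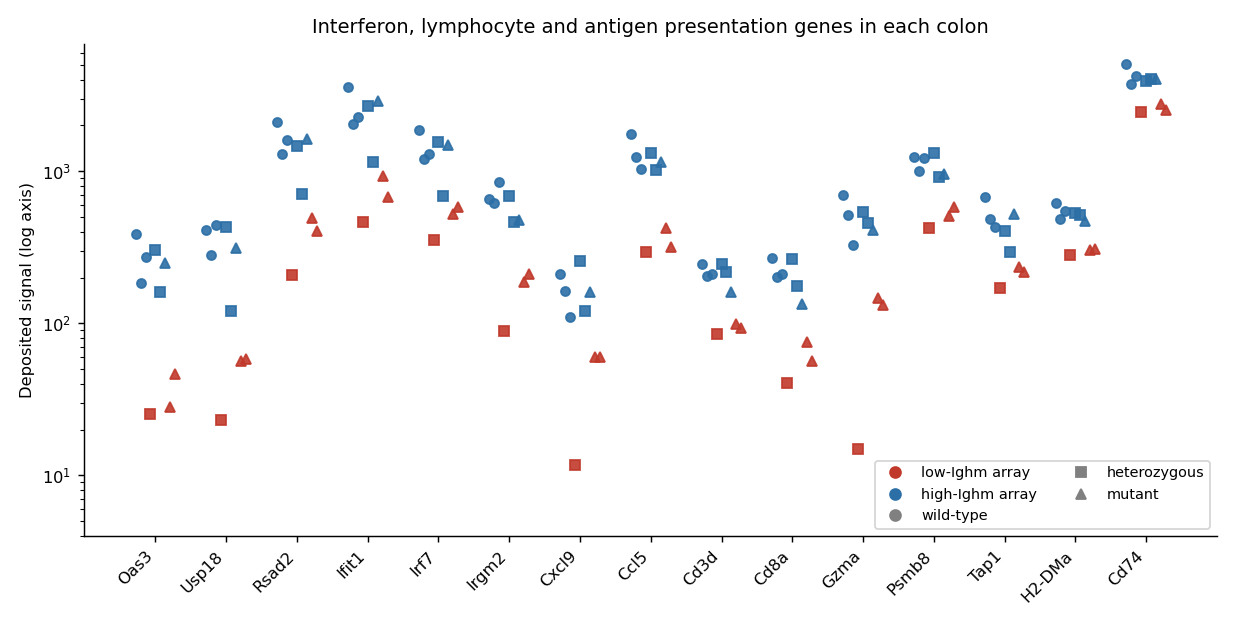
Deposited signal (log axis) of 15 interferon-induced, T cell and antigen presentation genes in each of the 9 colons, with colour for the Ighm class and marker shape for the genotype; each point is 1 array. The 15 were taken from genes lower in every low array, so on each the 3 low arrays lie below the 6 high arrays by choice. The margin is wide on Oas3 and Ccl5 and narrow on Ifit1. Members of the same lists that overlapped, such as Cd3e, Prf1 and Stat2, are not shown.

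Several antigen presentation genes were lower in the low arrays, most of them by smaller amounts. Of 17 tested genes of the class I pathway and immunoproteasome, 7 were lower in every low array, beside 1.87% of all tested probe sets. The median was -0.27. Psmb8, a catalytic subunit of the immunoproteasome, read 423.6, 507.7 and 579.3 in the low arrays and 921.6 to 1313.4, median 1111.6, in the high arrays (-1.12). Psmb9 (-0.84), a further such subunit, and Tap1 (-1.07), a subunit of the transporter that carries peptides into the endoplasmic reticulum, were also lower. The class I chain H2-D1 (-0.30) and B2m (-0.15), the light chain of class I molecules, differed little. On the signals as deposited 5 of the 17 were lower, and B2m, Tap2 and Tapbpl overlapped while H2-K1 did not. The chaperones Canx (0.02) and Calr (0.26) overlapped.

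Of 7 tested class II genes, 4 were lower in every low array, beside 1.87% of all tested probe sets, and the median was -0.45. Without the limit on dim probe sets, 4 of 11 were lower and the median was -0.37. Cd74, the invariant chain that guides class II molecules, read 2441.6, 2776.0 and 2529.7 in the low and 3725.9 to 5066.3 in the high arrays (-0.65). H2-DMa, which loads peptides, read 281.4, 301.7 and 309.0 against 469.9 to 620.6 (-0.75). H2-Eb1 (-0.51) and H2-Aa (-0.30) were lower, and H2-Ab1 (-0.45), Ctss (-0.08) and Ifi30 (0.07) overlapped. The median of the class II list was -0.25 with arrays centred on their medians in place of quantile normalization.

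Cells that use class II molecules were read by their own markers. Of 16 tested macrophage and dendritic cell genes 4 were lower in every low array, beside 1.87% of all tested probe sets. The median was -0.24. The 4 were Aif1 (-0.70), the lysozyme gene Lyz2 (-0.61), and C1qc (-0.53) and C1qa (-0.33) of complement. Csf1r (-0.13), Adgre1 (-0.13), Cd14 (-0.07) and Cd68 (-0.02), which define macrophages, overlapped. So did Itgax (-0.48) and Fcgr3 (-0.46), though Itgax was lower in every low array as deposited. All 16 differences were below 0, as were 47.9% of those of all tested probe sets. Without the limit on dim probe sets 21 of 23 were below 0. The summed signal of the 23 genes on the array was 11453 to 14234 in the low and 13226 to 19398 in the high arrays. The 15 granulocyte and mast cell genes on the array were all too dim to be tested.

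Most B cell genes were dim in all 9 colons. Of 17 listed genes on the array 12 were too dim and 5 were tested. Of the 5, 1 gene, Pou2af1, a coactivator of antibody genes, was lower in every low array, at 248.7, 305.1 and 256.0 against 323.3 to 480.3 (-0.43). The median of the 5 was -0.43, and without the limit on dim probe sets that of the 17 was -0.06, so the value rests on which genes are bright enough. The list holds Ighm itself, the gene of the split, read here by its brightest probe set. Without Ighm the median of the remaining 4 tested genes was -0.23, an alternative added after seeing the data. The defining markers did not separate the classes: Cd79a was 37.1 to 43.3 in the low and 26.7 to 82.8 in the high arrays, Ms4a1 was 35.9 to 44.5 against 26.6 to 78.0, and Pax5 was at most 1.6. The summed signal of the 17 genes was 1519 to 1809 in the low and 1934 to 2511 in the high arrays, and without Ighm 1225 to 1378 and 1433 to 1644. Of 10 tested plasma cell genes 1 was lower, the transcription factor Irf4 (-0.57), and the median was -0.13. The share lower over all tested probe sets was 1.87%. Of 7 tested genes of lymphoid tissue stroma 0 were lower and the median was -0.03, with Cxcl13, the chemokine of B cell follicles, at 0.14. The part of T cell, macrophage and B cell numbers in the differences of the interferon-induced genes was not tested.

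The remaining cell types of the colon did not separate the classes. No gene was lower or higher in every low array among the tested genes of absorptive colonocytes (18, median 0.01), goblet cells (12, 0.01), enteroendocrine cells (11, 0.09), epithelial defence (13, 0.08), smooth muscle (13, -0.05), enteric neurons and glia (7, -0.17), fibroblasts (12, -0.20) or endothelium (9, 0.04). The same was so for the tested genes of glucocorticoid response (16, -0.03), folate and one-carbon metabolism (10, 0.06) and the cell cycle (22, 0.19). For the cell cycle list the median was 0.44 for the low against the high heterozygous arrays and -0.19 for the mutant arrays. In both genotypes the array numbered 1 had the highest list mean. It was 8.83 in heterozygous 1, which is in the low class, and 8.97 in mutant 1, which is in the high class. Small intestine (6, 0.02), bile acid and xenobiotic genes (9, 0.09) and adipocytes (8, -0.18) also had 0 such genes, 1 of 15 circadian clock genes was lower (median -0.04), and 1 gene each of pancreas and blood was tested and overlapped. On the signals as deposited there were 2 exceptions in these lists. The epithelial gene Epcam was lower in every low array, and Shmt2, the mitochondrial counterpart of Shmt1, was higher, at 213.9, 184.9 and 159.5 against 122.6 to 158.3 (0.45 after normalization, with overlap). Reg3g, an antimicrobial lectin of the epithelium, read 1218.3, 1028.0 and 2466.3 in the low and 729.6 to 4586.1 in the high arrays.

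**Figure D3:**
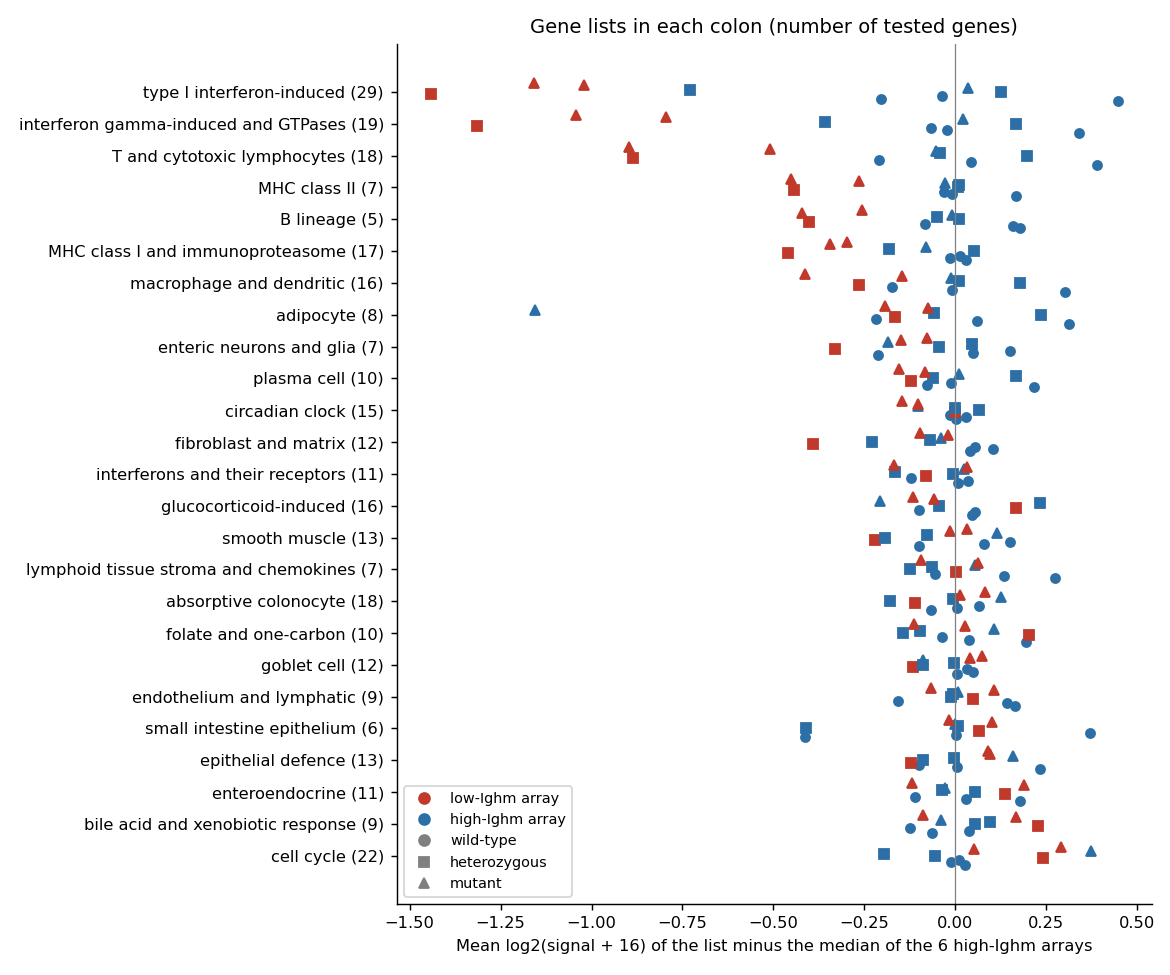
Mean log2(signal + 16) of the tested genes of each list in each colon, minus the median of the 6 high arrays, for lists with at least 5 tested genes (number in brackets); colour gives the Ighm class and shape the genotype. The low arrays lie below all high arrays in the type I interferon, interferon gamma, T cell, MHC class I, MHC class II, B lineage (Ighm included) and plasma cell lists and mix with them in the other lists. In the plasma cell list they barely do so, with a list mean of 10.279 in mutant 2 against 10.285 in wild-type 2.

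Within the low class the 3 colons were not alike. Heterozygous 1 was the lowest of all 9 arrays for 20 of 29 type I interferon-induced genes and 11 of 19 interferon gamma-induced genes, with a list mean of 7.98 on the log2 scale for the former against 8.40 in mutant 2 and 8.26 in mutant 3. For T cell genes mutant 3 was lowest for 10 of 18 and heterozygous 1 for 6, with list means of 7.42 and 7.43 against 7.81 in mutant 2. On the defining Ighm probe set these 3 arrays read 2.6 to 15.9, around the highest Bacillus control of 10.9. Those signals are too near background to rank the 3 arrays.

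Within the high class, heterozygous 3 stood nearest to the low arrays in interferon-induced genes but not in T cell genes. It was the lowest high array for 23 of 29 type I interferon-induced genes and 15 of 19 interferon gamma-induced genes. Its type I list mean was 8.69, against 9.22 to 9.87 in the other 5. Its signal on the defining Ighm probe set, 2831.4, was the second highest, and its T cell list mean of 8.27 lay inside the range of 8.11 to 8.70 of the other 5. Wild-type 1 had the highest list mean for type I interferon-induced genes (9.87), interferon gamma-induced genes (9.21), T cell genes (8.70) and class II genes (11.26).

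Outside the lists, 5 genes were lower by at least 1: Ddx60 (-2.13), a helicase of the antiviral response, Ms4a4b (-1.55), a membrane protein of T cells, Ccl8 (-1.20), a chemokine, Sp100 (-1.09), a nuclear body protein, and Upp1 (-1.08), a uridine phosphorylase. Ms4a4b read 50.2, 59.8 and 55.8 in the low and 99.1 to 238.9 in the high arrays. Of the lists, Slfn2, a schlafen protein needed for T cell quiescence, read 47.7, 55.8 and 60.6 against 113.4 to 198.3 (-1.14). Cd52, a surface protein of lymphocytes, read 682.8, 733.5 and 752.1 against 1026.5 to 1261.0 (-0.69). The actin-bundling protein Lcp1 of white blood cells differed by -0.56.

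Few genes were clearly higher in the low arrays. Apart from Ighm, the genes with the widest gap between classes were Tnks1bp1 (0.35), Ppp1r14b (0.35), Rps6kb2 (0.37), Msi1 (0.27), Tbc1d10b (0.40), Nus1 (0.27), Cdh2 (0.20), Ndc1 (0.26), Fhl2 (0.27) and Ube2v2 (0.30). Each differed by less than 0.5 on the log2 scale, and Cdh2 and Ube2v2 overlapped between classes on the signals as deposited. Msi1 encodes an RNA-binding protein of intestinal stem cells and Rps6kb2 a kinase that phosphorylates ribosomal protein S6. Ppp1r14b encodes a phosphatase inhibitor, Cdh2 a cadherin and Ndc1 a nuclear pore protein.

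The size of the differences was also read inside each genotype that held both classes. For heterozygous mice, array 1 was set against the mean of arrays 2 and 3, and for mutant mice the mean of arrays 2 and 3 against array 1. Of the 47 probe sets lower by at least 1 between classes, 45 were lower by at least 1 among heterozygous and 41 among mutant arrays, and 39 in both, with medians of -1.70 and -1.50. The range over the 3 wild-type arrays, all in the high class, had a median of 0.77 for these probe sets. Over all tested probe sets, 48 were lower and 8 were higher by at least 1 in both genotypes. The 47 were called because every low array lay below every high array, so their direction within each genotype was fixed in advance. Each contrast has a single array on one side, heterozygous 1 or mutant 1. Since the arrays too were chosen by the split, these counts are no separate support for it.

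By list, the medians within heterozygous and within mutant arrays were -0.90 and -0.95 for type I interferon-induced genes, -0.67 and -0.54 for T cell genes and -0.47 and -0.41 for class II genes. For class I genes they were -0.40 and -0.05. For interferon gamma-induced genes the median within heterozygous arrays was -1.24, and within both genotypes 19 of 19 tested genes were below 0. For the 16 of them lower in every low array this direction follows from the call. Gzma differed by -3.98 among heterozygous and -1.63 among mutant arrays, and Cxcl9 by -2.71 and -1.40. Oas3 differed by -2.39 and -2.50 and Usp18 by -2.52 and -2.31, nearly the same in both genotypes.

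Wdfy1, an endosomal adaptor protein, was lower by over 1 in both genotypes but not between the classes, because the wild-type arrays sided with the low ones. On probe set 1437358_at it read 209.8, 218.3 and 221.5 in the low arrays and 517.5, 525.3 and 676.1 in heterozygous 2 and 3 and mutant 1. The wild-type arrays, all high on Ighm, read 164.8, 211.1 and 203.2. On its other tested probe set all arrays read 93.1 to 145.2. Wdfy1 was picked out after its values were seen.

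**Figure D4:**
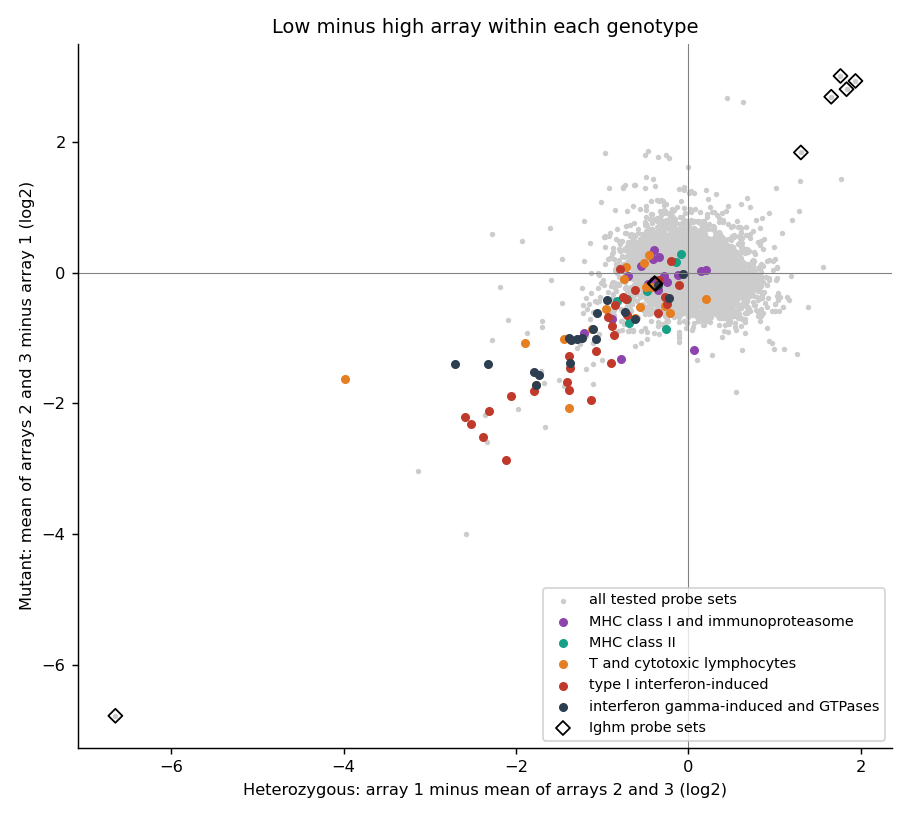
Difference between low and high arrays within heterozygous mice (horizontal, log2) and within mutant mice (vertical, log2) for each tested probe set, with list genes in colour and Ighm probe sets as open diamonds. The interferon and T cell genes extend into the lower left, 5 Ighm probe sets lie at the upper right and the defining probe set at the lower left, near -6.65 and -6.77.

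The comparison of genotypes, which asked what the cSHMT mutation changes in the colon on this diet, called none of these genes. With limma on all 9 arrays and Benjamini-Hochberg adjustment, 3 probe sets passed in mutant against wild-type (0.0221%), those of Shmt1 and Trim16 and 1 with several symbols. For the heterozygous colons 0 passed (0%), and 1087 had an unadjusted p under 0.05. The count that passed for heterozygous colons was 3 without heterozygous 3 and 134 with array weights. Of the 254 probe sets lower in every low array 0 passed in either comparison, with smallest adjusted p of 0.998 for mutant and 0.584 for heterozygous. Their median log2 fold change was -0.28 in mutant mice, with 253 of the 254 below 0, and -0.16 in heterozygous mice, with 231 below 0, against 6655 and 6920 of all 13576 tested. As every wild-type array is in the high class, this direction follows from the way the 254 were chosen. Both comparisons share the wild-type arrays.

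For genes chosen because they separated the classes, the standard errors between genotypes include the spread between low and high arrays of the same genotype. Irgm2 had a log2 fold change of -1.36 (SE 0.566, limma adjusted p = 0.998) in mutant against wild-type, where 2 of 3 mutant arrays are low, and of -1.14 (SE 0.566, adjusted p = 0.639) in heterozygous, where 1 of 3 is. Cd3d had -0.82 (SE 0.320, adjusted p = 0.998) and -0.38 (SE 0.320, adjusted p = 0.782). The defining Ighm probe set had -3.89 (SE 1.91, adjusted p = 0.998) and -1.61 (SE 1.91, adjusted p = 0.856). The bright Ighm probe set 1427351_s_at, which did not separate the classes, had -0.84 (SE 0.197, adjusted p = 0.998) and -1.31 (SE 0.197, adjusted p = 0.232).

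With the Ighm class as a further term in limma, the medians of the 254 probe sets were -0.01 for mutant and -0.04 for heterozygous against wild-type, which follows from the way they were chosen. Irgm2 then had log2 fold changes of -0.12 and -0.52 (adjusted p over 0.99 and 0.717). The counts were 3 (0.0221%) for mutant, 1 higher and 2 lower, and 1 (0.00737%) for heterozygous. The 1 was Wdfy1, with log2 fold changes of 1.42 in heterozygous (adjusted p = 0.0374) and 1.62 in mutant (adjusted p = 0.0138). In limma without the class term it did not pass, at 0.95 in heterozygous (adjusted p = 0.609) and 0.69 in mutant (adjusted p = 0.998). The class term was made from measured values, and no wild-type array is in the low class. These fits therefore describe the arrays and add no test of the class or of a genotype effect on Wdfy1.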

How the data were processed

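The authors deposited intensities, 1 linear signal for each probe set on each of 9 Affymetrix arrays with 22690 probe sets, hybridised with RNA amplified from about 50 ng per colon. Per the submitters' processing notes they come from GCOS, with no version or scaling stated. The mean signal with 2% trimmed at each end was near 500.1 on every array. The steps here were log2(signal + 16), quantile normalization over 22626 probe sets without the 64 controls, and removal of the lowest 40% by the mean over all arrays, which left 13576.

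The split, its members and the 28 gene lists (538 genes) were chosen with earlier results of these data known. A probe set was called lower or higher where all 3 low arrays lay on one side of all 6 high arrays. A gene in a list is read by its probe set of highest mean. Named are all immunoglobulin probe sets, up to 6 genes per list with the largest difference plus ligands, receptors and targets, the 15 lower and 15 higher probe sets of widest gap, and Shmt1; Wdfy1 and the genes outside the lists were chosen after their values were seen. Gene names come from the platform annotation, which can be old. Of the tested probe sets 12489 have 1 symbol, 448 several and 639 none, and the last 2 kinds are counted and not named. Genotypes were compared with limma 3.58.1 (lmFit, eBayes with trend, R 4.3.3), two-sided, adjusted p under 0.05, all 9 arrays in 1 fit, a script that was tested on simulated data. The labels call the mice biological replicates and do not say whether litters were shared. Same-numbered arrays of different genotypes correlated at -0.06 to 0.46 in their deviations from the genotype means (9 pairs) and differently numbered ones at -0.51 to 0.27 (18 pairs); as not every same-numbered pair was over 0.1, the numbers were not taken to pair the mice. Alternatives were other normalizations, filters, pseudocounts, models and each array left out. Figures were drawn with Python 3.11.15 and matplotlib 3.10.9.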

Additional observations from a re-analysis of the deposited data

How the results depend on the processing

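The signs of the 5 list medians (type I interferon, T cell, B lineage, MHC class II, MHC class I) were below 0 under every alternative run. Without a limit on dim probe sets 382 were lower and 244 higher in every low array, the B lineage median was -0.064 and the class II median -0.37; without Ighm, added after seeing the data, the B lineage median was -0.23; with the lowest 60% left out 147 were lower and 94 higher; with arrays centred on their medians the class II median was -0.25 and 231 were lower, of which 202 were among the 254. Leaving out each array in turn gave 298 to 572 lower and 178 to 523 higher probe sets (fewer arrays to separate raise these counts by construction). The list medians then ranged from -1.10 to -0.89 (type I interferon), -0.57 to -0.46 (T cell), -0.52 to -0.33 (B lineage), -0.57 to -0.30 (class II) and -0.31 to -0.24 (class I). Without mutant 1 or wild-type 1, 270 were higher, and without heterozygous 1, mutant 2 or mutant 3, 391, 462 and 523. For genotypes, leaving out each array gave 2 to 4 probe sets for mutant and 0 to 3 for heterozygous against wild-type, the replicate block 5 and 0, array weights 9 and 134, and the Ighm class as a term 3 and 1; the cause was not tested. For the 171 named probe sets 2501 values were recomputed, of which 81 moved by more than the spread. Among the named probe sets that separated the classes, 0 changed sign. Changes of sign were not counted for those that overlapped. The number of arrays limits the precision, and probe sets under 75.5 signal units are near background.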
